A study of Rattus norvegicus with 44 samples.

Results

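Endotoxin, the lipopolysaccharide (LPS) of the outer membrane of Gram-negative bacteria, is sensed by a Toll-like receptor (TLR) complex, and the genes of that complex and of the signalling steps behind it were followed here in the rat hippocampus. The set was chosen by gene symbol and lists 10 genes, Tlr4, Tlr2, Cd14, Ly96, Myd88, Ticam1, Irak1, Irak4, Traf6 and Nfkbia. Of these, 8 had values in both regions and all 8 passed the filter on low values; Ly96 and Ticam1 were not analysed here. They are 8 of the 14915 genes tested in CA1 and of the 14904 tested in the dentate gyrus (DG). Polyadenylated RNA was sequenced from CA1 and DG of 1 hippocampus from each of 22 male rats, which gave 44 libraries. Young LPS rats (n = 8, aged 5 to 7 months) were injected intraperitoneally with LPS at 1 mg per kg once a week for 7 weeks. Aged vehicle rats (n = 6, aged 14 to 16 months) and young vehicle rats (n = 8, aged 5 to 7 months) had saline on the same schedule. Hippocampi were taken 48 hours after the last injection, so every group, controls included, had been injected 7 times, and no aged rat had LPS.

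CD14 takes up LPS and passes it to the complex of TLR4 and MD-2 at the surface of innate immune cells. TLR4 then signals through the adaptor MyD88, the kinases IRAK4 and IRAK1 and the ubiquitin ligase TRAF6, which leads to release of the transcription factor NF-kB from its inhibitor IkB-alpha, the product of Nfkbia. TLR2 recognises bacterial lipoproteins and uses the same MyD88 route. In the brain the receptors are known mainly from microglia and from macrophages at the vessels and meninges, whereas the kinases are made by many cell types.

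A library held 12292346 to 18749663 recovered reads in CA1, and 12130182 to 23519791 in DG. The lowest CA1 count was that of aged rat 2532. The labelled regions were checked with neuronal markers: Wfs1, of CA1 pyramidal cells, lay between 11165 and 41628 normalized reads in CA1 libraries and between 522 and 10922 in DG libraries, and Prox1, of dentate granule cells, between 298 and 1787 in CA1 and between 1831 and 4129 in DG. The regions were normalized separately, so these levels are set side by side without a test. In DG, 6 CA1 pyramidal markers summed to 1188 to 10785 normalized reads in young LPS rats (median 5698). They summed to 1625 to 15967 in aged rats (median 10269) and 1401 to 13855 in young vehicle rats (median 4162). DG libraries thus differed in CA1 markers within groups and between them. A score of CA1 against granule cell markers is among the terms added in the alternatives. Microglial genes were read in every library, with Cx3cr1 at 304 to 804 normalized reads in CA1 and 301 to 530 in DG. Of 8 listed monocyte and neutrophil markers, 5 had values in CA1, where they summed to 0 to 8.75 normalized reads per library, and 6 in DG, where they summed to 13.2 to 73.3, mostly Itgal (12.7 to 68.9). S100a8 was at 0 in 15 of the CA1 libraries and 13 of the DG libraries. DG libraries of the young vehicle rats 2526 and 2572 and of the aged rat 2532 stood apart in genes of meningeal fibroblasts. The mean of the 3 such genes with DG values, of 9 listed, was 1.55, 1.92 and 1.86 log2 units above the average of all 22 DG libraries, and the mean of 7 perivascular macrophage genes, of 8 listed, 1.00, 1.54 and 1.47 above it. The CA1 library of rat 2526 stood apart too, with list means of 3.95 for choroid plexus genes, 1.55 for meningeal fibroblasts and 0.71 for perivascular macrophages above the CA1 average; its choroid plexus genes summed to 9714 normalized reads, against at most 1017 in any other CA1 library. The CA1 library of rat 2572 had a perivascular mean of 0.92. Results below are given with and without these rats where they rest on them. In bulk tissue, fewer cells of a type and less RNA per cell cannot be told apart.

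No gene of the set passed the test for LPS or for age in either region. In CA1, 0 of the 8 genes passed limma's adjusted p of 0.05 between young LPS and young vehicle, beside 0% of all genes tested. In DG, 0 of 8 passed, beside 0.0134% of all genes. Their log2 changes lay between -0.20 and 0.18 in CA1 and between -0.29 and 0.086 in DG, with medians of 0.063 and -0.055, beside 0.012 and -0.0041 over all genes tested. Between aged and young vehicle rats, 0 of 8 passed in CA1 and 0 of 8 in DG, beside 0.0134% of all genes in either region. At this depth and group size the 95% confidence intervals of the LPS changes still spanned -0.78 to 0.75 in CA1 and -0.95 to 0.77 in DG, so sizeable changes of the low genes could have been missed. Across all genes, 1024 in CA1 and 1122 in DG had an unadjusted p below 0.05 for LPS; edgeR on recovered reads called 0 and 2 genes, and DESeq2 called 1 and 3.

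**Figure D1:**
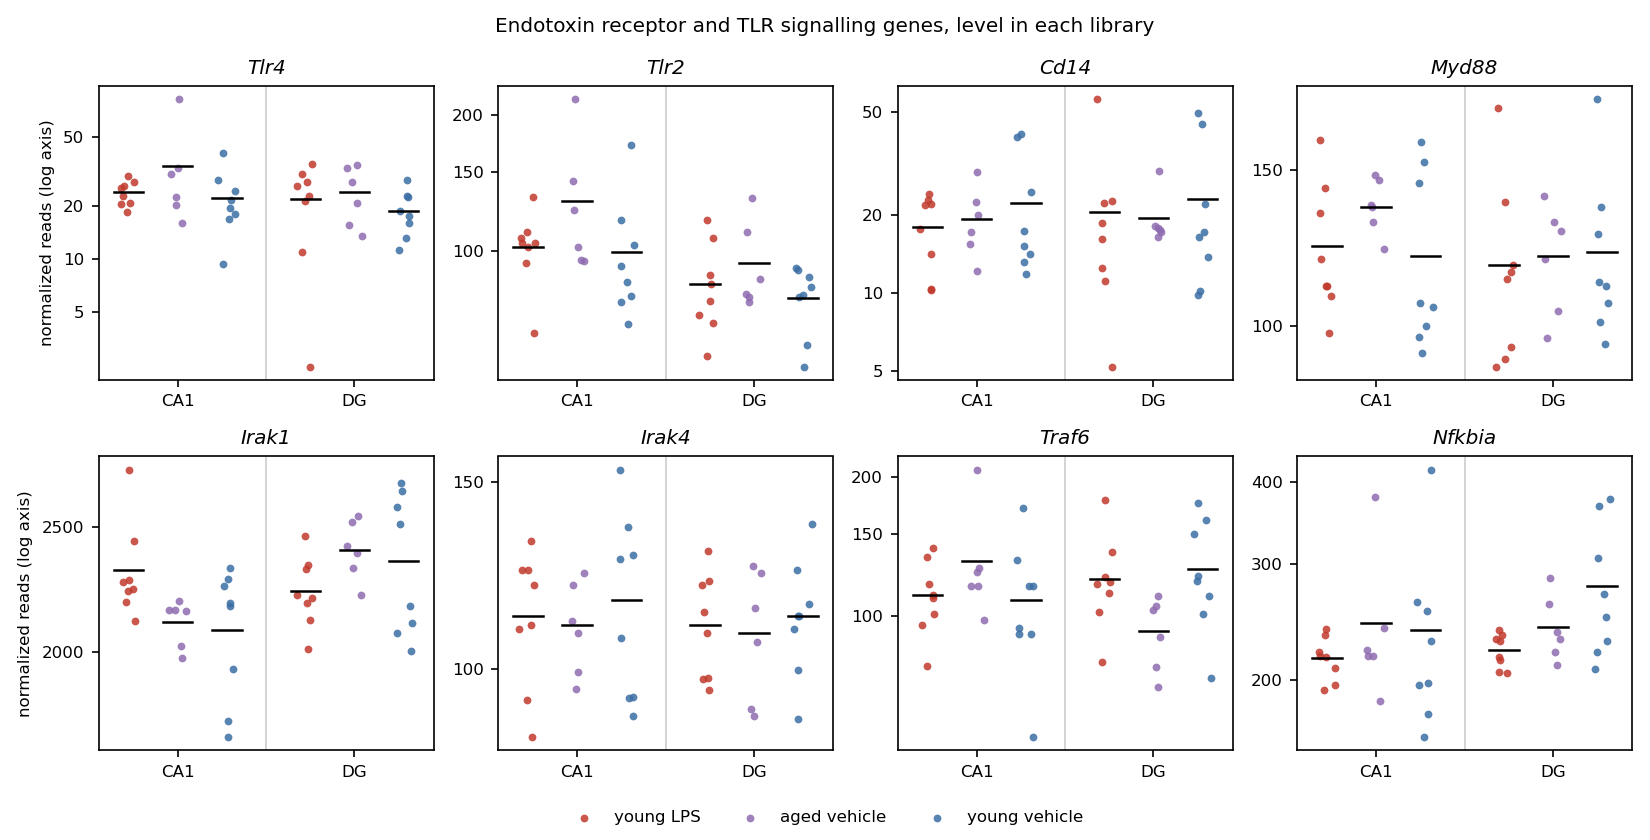
Level of each of the 8 genes in normalized reads, on a log axis, in every library, with young LPS, aged vehicle and young vehicle rats from left to right within CA1 and within DG. Each point is 1 rat and each bar a group mean. The groups overlap for every gene in both regions, and aged rat 2532 is the high CA1 point of Tlr4 (81.7), Traf6 (207) and Nfkbia (379).

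Tlr4, the signalling receptor for LPS, was read at a low level. In CA1 it lay between 18.6 and 29.9 normalized reads in young LPS rats (median 24.2), between 16.1 and 81.7 in aged vehicle rats (median 26.6) and between 9.39 and 40.1 in young vehicle rats (median 20.7). The young LPS libraries were tight and sat inside the range of the young vehicle libraries. The mean was 24 ± 3.83 in young LPS rats and 22.3 ± 9.08 in young vehicle rats (SD, n = 8 each), and the log2 change of 0.18 ± 0.28 (SE) did not pass (limma adjusted p = 0.818). Aged vehicle rats averaged 34.0 ± 24.2 (SD, n = 6), a log2 change from young vehicle of 0.47 ± 0.30 (limma adjusted p = 0.442). That difference leaned on a single library, the 81.7 of rat 2532, since the other aged rats lay between 16.1 and 33.0. Without rat 2532 it was 0.18, with a limma adjusted p of 0.883. The highest young vehicle value, 40.1, was that of rat 2526, and without this rat the change with LPS was 0.31 (limma adjusted p = 0.776).

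In DG, Tlr4 lay between 2.43 and 34.9 normalized reads in young LPS rats (median 24.5), between 13.6 and 34.4 in aged vehicle rats (median 24.3) and between 11.2 and 28.4 in young vehicle rats (median 18.2). Of the 8 young LPS libraries, 6 were above the young vehicle median, yet the lowest library of all, rat 2547 with 2 recovered reads, was also a young LPS one. The log2 change with LPS was 0.011 ± 0.37 (SE, limma adjusted p = 1.00), and it was 0.37 without rat 2547 (limma adjusted p = 0.741). The change with age was 0.31 ± 0.40 (limma adjusted p = 1.00). In CA1 the coefficient of variation of Tlr4 was 16.0% in young LPS rats, 71.1% in aged rats, rat 2532 included, and 40.6% in young vehicle rats, where counting error alone gives 20.4% in young LPS rats and 19.8% over all CA1 libraries. The young LPS scatter in CA1 was thus no larger than counting error. In DG it was 48.3% in young LPS rats, rat 2547 included, 36.3% in aged rats and 29.8% in young vehicle rats, where counting error gives 19.7%, 20.6% and 23.1%.

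Tlr2, the receptor for bacterial lipoproteins, is an NF-kB target in macrophages. Its promoter is shown because that link runs through sequence near the start site. The 10-base pattern searched, GGGNNNNNCC, is a loose form of the NF-kB consensus, with all inner bases left free. The 300 bases from 250 before to 50 after the RefSeq start (GRCr8, chr2:171504508-171504807, minus strand) hold 7 overlapping matches to it, on both strands, in the 2 stretches in capitals.
Tlr2: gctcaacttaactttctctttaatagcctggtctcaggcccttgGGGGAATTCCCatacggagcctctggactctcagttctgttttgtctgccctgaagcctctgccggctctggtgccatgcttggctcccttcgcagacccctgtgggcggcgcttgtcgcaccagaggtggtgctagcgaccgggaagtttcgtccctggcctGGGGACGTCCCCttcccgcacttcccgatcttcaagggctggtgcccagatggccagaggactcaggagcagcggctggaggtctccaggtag
Of 33469 rat promoters of that length, 47.3% hold at least 1 match and 27.7% at least 2, so a match is common and describes letters only. In CA1, Tlr2 lay between 65.6 and 132 normalized reads in young LPS rats (median 104), between 94.8 and 217 in aged vehicle rats (median 113) and between 69.0 and 172 in young vehicle rats (median 89.1). Above the young vehicle median were 7 of the 8 young LPS libraries and all 6 aged libraries, but the ranges overlapped. The log2 change was 0.076 ± 0.19 (SE) with LPS (limma adjusted p = 0.893) and 0.37 ± 0.20 with age (limma adjusted p = 0.403). Rats 2532 and 2572 held the highest aged and the highest young vehicle value, 217 and 172. Without rats 2526, 2572 and 2532 the changes were 0.26 and 0.39, still short of the threshold (limma adjusted p = 0.378 and 0.555). In DG the young LPS libraries ran from 58.6 to 117 (median 80.9), the aged libraries from 77.2 to 131 (median 83.5) and the young vehicle libraries from 55.4 to 91.7 (median 81.5). There the log2 change was 0.086 ± 0.16 with LPS (limma adjusted p = 0.929) and 0.25 ± 0.17 with age (limma adjusted p = 1.00).

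Cd14, the LPS-binding co-receptor, had changes whose sign depended on rats 2526, 2572 and 2532, whose libraries were rich in genes of other cell types in DG and, for rat 2526 (meningeal, choroid plexus and perivascular) and rat 2572 (perivascular), also in CA1. The meningeal genes of rat 2532 in CA1 had a list mean of 0.24 and summed to 1706 normalized reads. The part of such other cells in the values was not tested. In CA1, Cd14 lay between 10.3 and 24.2 normalized reads in young LPS rats (median 19.8), between 12.2 and 29.2 in aged vehicle rats (median 18.7) and between 11.9 and 41.2 in young vehicle rats (median 16.2). In DG the young LPS libraries ran from 5.21 to 55.9 (median 17.4), the aged libraries from 16.4 to 29.5 (median 17.7) and the young vehicle libraries from 9.86 to 49.7 (median 16.8). Young vehicle rats 2526 and 2572 were the 2 highest of their group in both regions, at 40.1 and 41.2 in CA1 and 44.8 and 49.7 in DG, and aged rat 2532 was the highest of its group in both. With them, the log2 change with LPS was -0.20 ± 0.28 (SE) in CA1 (limma adjusted p = 0.796) and -0.19 ± 0.37 in DG (limma adjusted p = 0.935). Without them it was 0.13 in CA1 (limma adjusted p = 0.797) and 0.22 in DG (limma adjusted p = 0.886). The log2 changes with age were -0.08 and -0.029 with them and 0.13 and 0.26 without them. Rat 2532, an aged rat, is in neither group of the LPS difference. Leaving out 1 other rat also turned signs. The LPS change in DG was 0.03 without rat 2717. The age change was 0.036 in CA1 without rat 2415 and 0.012 in DG without rat 2412. Young LPS rat 2547, with the lowest DG value of Tlr4, had the highest DG value of Cd14, 55.9, while its meningeal list mean was -0.84 and its perivascular list mean -0.19 on the same scale.

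**Figure D2:**
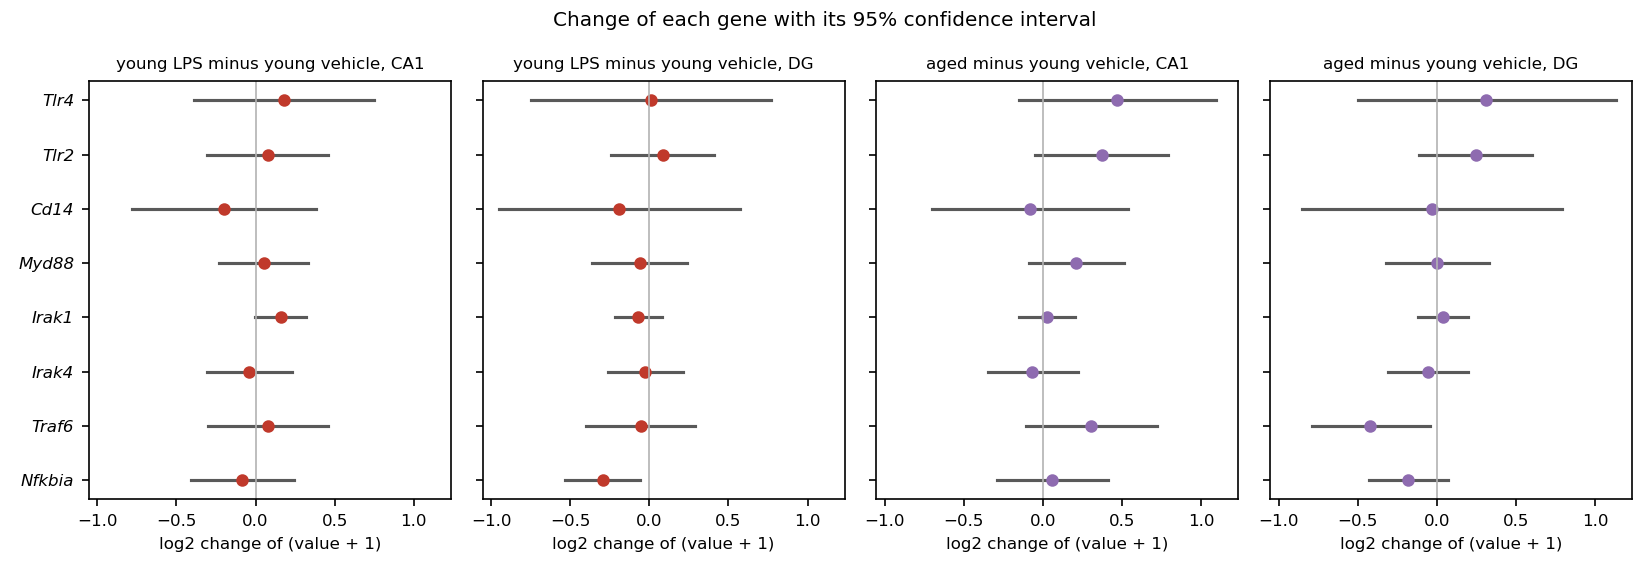
Log2 change of each gene, as a point with its 95% confidence interval, for young LPS minus young vehicle and for aged vehicle minus young vehicle in CA1 and DG. Intervals are widest for Tlr4 and Cd14 and narrowest for Irak1; those of Nfkbia with LPS in DG (-0.53 to -0.061) and Traf6 with age in DG (-0.79 to -0.043) miss 0 before adjustment.

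Myd88 and the kinases behind it had group means close to each other. Myd88, the adaptor shared by most Toll-like receptors, averaged 123 ± 21.5 normalized reads in young LPS rats, 136 ± 9.67 in aged rats and 120 ± 27.9 in young vehicle rats in CA1 (SD, n = 8, 6 and 8). In DG it averaged 117 ± 28.8 in young LPS rats, 120 ± 16.4 in aged rats and 121 ± 27.4 in young vehicle rats. All 6 aged CA1 libraries were above the young vehicle median of 106, within its range, and the log2 change with age was 0.21 ± 0.15 (SE, limma adjusted p = 0.465). The change with age in DG was 0.00066, and the change with LPS was 0.05 in CA1 and -0.057 in DG. The spread of Myd88 between rats of a group was 17.5% in CA1 and 21.4% in DG, above the 8.88% and 9.06% of counting error. Irak4, the kinase that opens the cascade, had log2 changes of -0.04 and -0.025 with LPS and of -0.067 and -0.055 with age in CA1 and DG. The interval of its LPS change in DG ran from -0.26 to 0.21, and its limma adjusted p was 0.975.

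Irak1, the kinase activated by IRAK4, was the most precisely measured gene of the set, with a spread between rats of a group of 9.02% in CA1 and 8.91% in DG. In CA1 it lay between 2114 and 2771 normalized reads in young LPS rats (median 2253), between 1981 and 2192 in aged vehicle rats (median 2155) and between 1719 and 2325 in young vehicle rats (median 2178). Of the 8 young LPS libraries, 7 were above the young vehicle median, and the log2 change was 0.16 ± 0.078 (SE, unadjusted p = 0.0541, limma adjusted p = 0.654). Without rats 2526, 2572 and 2532 it was 0.10 (limma adjusted p = 0.492). In DG the sign was the other way, and young LPS libraries ran from 2011 to 2462 (median 2209), aged libraries from 2214 to 2550 (median 2404) and young vehicle libraries from 2006 to 2707 (median 2344). There, 1 of 8 young LPS libraries was above the young vehicle median, and the log2 change was -0.07 ± 0.072 (limma adjusted p = 0.859). With age the log2 change of Irak1 was 0.028 in CA1 and 0.037 in DG.

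Traf6, the ubiquitin ligase that passes the signal on to the IkB kinases, had age differences of opposite sign in the 2 regions, neither past the threshold. In CA1 it lay between 77.9 and 140 normalized reads in young LPS rats (median 110), between 97.6 and 207 in aged vehicle rats (median 120) and between 54.5 and 171 in young vehicle rats (median 105). The log2 change with age was 0.30 ± 0.20 (SE, limma adjusted p = 0.454), and 0.16 without rat 2532 (limma adjusted p = 0.855). In DG the young LPS libraries ran from 79.1 to 178 (median 118), the aged libraries from 70.1 to 110 (median 96.6) and the young vehicle libraries from 73.2 to 175 (median 121). No aged DG library reached the young vehicle median, and 5 young vehicle libraries lay above the highest aged one. The change with age was -0.42 ± 0.18 (unadjusted p = 0.03, limma adjusted p = 1.00). With LPS it was 0.08 in CA1 and -0.054 in DG (limma adjusted p = 0.885 and 0.964).

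Nfkbia encodes IkB-alpha, which holds NF-kB in the cytoplasm and is itself induced by NF-kB, so that its transcript is a common readout of recent NF-kB activity. Its promoter is shown for that feedback: the 300-base RefSeq window (GRCr8, chr6:78597023-78597322, minus strand) holds 2 matches to GGGNNNNNCC, in capitals, the first on the gene's strand 214 bases before the start and the second on the other strand 31 bases before it.
Nfkbia: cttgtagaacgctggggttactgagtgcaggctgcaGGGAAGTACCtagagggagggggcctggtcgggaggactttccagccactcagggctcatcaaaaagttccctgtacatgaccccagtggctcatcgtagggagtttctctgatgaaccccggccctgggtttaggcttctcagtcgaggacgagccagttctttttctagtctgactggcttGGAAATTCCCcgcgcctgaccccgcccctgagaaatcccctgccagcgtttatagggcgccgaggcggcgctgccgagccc
Of the 8 genes, 7 had a promoter in the RefSeq table, and 4 of those 7 held a match. In DG, Nfkbia lay between 205 and 238 normalized reads in young LPS rats (median 223), between 211 and 286 in aged vehicle rats (median 234) and between 208 and 377 in young vehicle rats (median 260). No young LPS library reached the young vehicle median, and 5 of 8 young vehicle libraries lay above every young LPS library, although the ranges overlapped at the low end. The mean was 222 ± 12.8 in young LPS rats and 278 ± 65.2 in young vehicle rats (SD, n = 8 each). The log2 change of -0.29 ± 0.11 (SE) had an unadjusted p of 0.0154 and a limma adjusted p of 0.561. It was -0.23 without young vehicle rat 2731 (377) and -0.23 without rat 2722 (367), the 2 highest libraries. Over all alternatives that leave out 1 rat it lay between -0.35 and -0.23. The 5.76% spread of the young LPS libraries was no larger than the 6.42% that counting error gives.

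In CA1, Nfkbia lay between 193 and 239 normalized reads in young LPS rats (median 217), between 186 and 379 in aged vehicle rats (median 220) and between 164 and 417 in young vehicle rats (median 214). The young LPS libraries again filled a narrow band, but here the young vehicle libraries lay on both sides of it. The log2 change with LPS was -0.083 ± 0.16 (SE, limma adjusted p = 0.852), and it was 0.041 without rat 2731, the 417. With age it was 0.058 ± 0.17 in CA1 (limma adjusted p = 0.872) and -0.18 ± 0.12 in DG (limma adjusted p = 1.00). Leaving out rat 2532 made the CA1 value -0.076.

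Because both regions came from the same hippocampus, each gene could be compared within rats. Chosen after the values were seen, this description centred each library on its group and set CA1 against DG over the 22 rats, for 8 genes. Nfkbia had a Pearson r of 0.62 and a Spearman rho of 0.50 (permutation p adjusted over 8 = 0.0708 and 0.140), and r was 0.33 without rats 2532 and 2731. By the leading digits of the rat numbers, r was 0.83 over the 8 rats numbered 24 and 0.42 over the 10 numbered 25. Irak1 had an r of 0.61 and a rho of 0.63 (permutation p adjusted over 8 = 0.0708 and 0.0959), and r was 0.63 without its 2 farthest rats, with 0.66 and 0.58 in the 24 and 25 series. None of the 8 passed the adjustment. Tlr4 had an r of 0.23, Tlr2 of 0.18, Traf6 of 0.16, Irak4 of 0.071 and Myd88 of -0.20. Cd14 had an r of 0.51, which was 0.26 without rats 2526 and 2572.

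**Figure D3:**
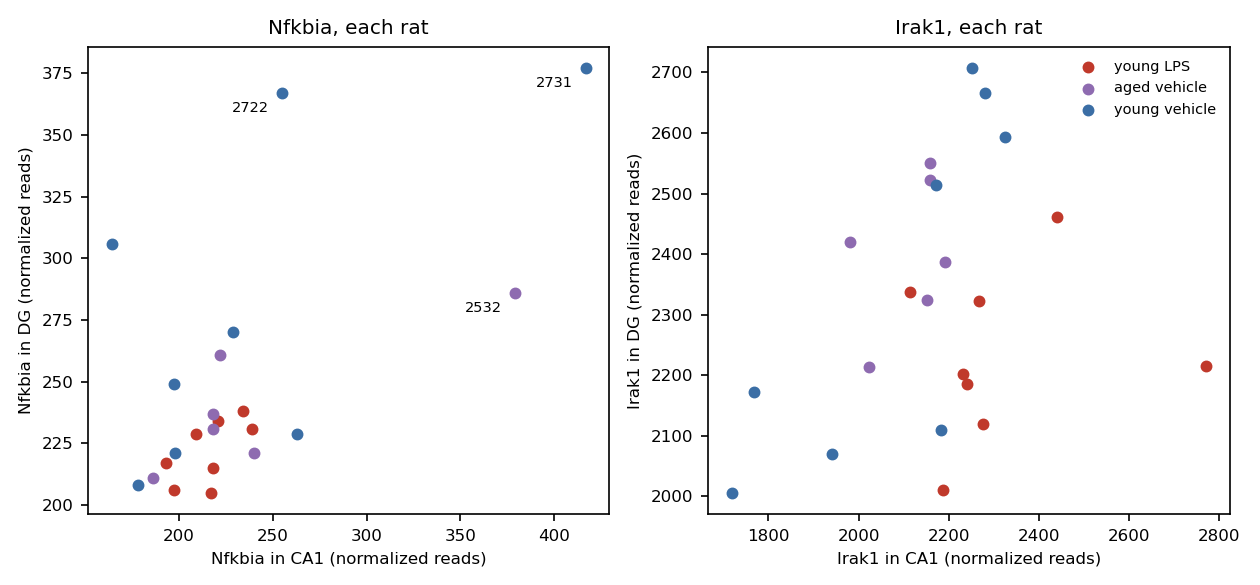
Normalized reads of Nfkbia and of Irak1 in CA1 (horizontal axis) and DG (vertical axis) of the same rat, 1 point per rat, coloured by group. Young vehicle rat 2731 is high for Nfkbia in both regions (417 and 377), aged rat 2532 is high in CA1 (379), and young LPS rats stay within 193 to 239 in CA1 and 205 to 238 in DG.

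The rats' numbers fall into 3 series by their leading digits, which the labels do not explain and which are uneven between groups. Series 24 held 3 young LPS, 4 aged and 1 young vehicle rat, series 25 held 4 young LPS, 2 aged and 4 young vehicle rats, and series 27 held 1 young LPS and 3 young vehicle rats. The list mean of CA1 pyramidal markers in DG libraries was 0.34 to 1.64 in series 24. It was -2.07 to 1.17 in series 25 and -1.63 to 1.26 in series 27. In DG, series and age thus go together with the amount of CA1 markers. Within series 25 the LPS difference of group means kept its sign for Nfkbia in DG (-0.28 log2 units) and Irak1 in CA1 (0.25). Nfkbia in DG differed by 0.14 in series 24, with 1 young vehicle rat, and by -0.46 in series 27, with 1 young LPS rat. Irak1 in CA1 differed by 0.34 in series 24 and by -0.08 in series 27. The LPS difference in series 25 had the other sign than over all rats for Tlr4 (-0.0016), Tlr2 (-0.28), Traf6 (-0.46) and Nfkbia (0.15) in CA1. The same held in DG for Tlr4 (-0.32), Tlr2 (-0.078), Myd88 (0.041), Irak1 (0.074) and Traf6 (0.065). Rats 2526 and 2572 are 2 of the 4 young vehicle rats of series 25. In CA1 they were the highest of those 4 for Tlr2 (117 and 172 normalized reads) and Traf6 (132 and 171). They were the lowest for Irak1 (1942 and 1719). The age difference in series 25, where rat 2532 is 1 of the 2 aged rats, was -0.42 for Traf6 in DG, 0.85 for Tlr4 in CA1 and 0.43 for Tlr2 in CA1. It had the other sign than over all rats for Cd14 (0.072) and Irak1 (-0.019) in CA1 and for Tlr4 (-0.031), Tlr2 (-0.0085), Cd14 (0.06), Irak4 (0.037) and Nfkbia (0.072) in DG.

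Whether the LPS or age change differed between the regions was tested within rats, on the CA1 minus DG difference. For LPS, 0 of 8 genes passed limma's adjusted p of 0.05, beside 0.00683% of 14637 genes, and for age 0 of 8, beside 0%. Irak1 came nearest for LPS: its change was 0.23 ± 0.08 (SE) log2 units higher in CA1 than in DG, with an unadjusted p of 0.00898 and a limma adjusted p of 0.351. Traf6 came nearest for age, at 0.72 ± 0.24, with an unadjusted p of 0.00745 and a limma adjusted p of 0.735; without rat 2532 it was 0.63. The difference for Nfkbia was 0.21 ± 0.13 with LPS and 0.24 ± 0.14 with age (limma adjusted p = 0.457 and 0.735). For the other genes the LPS difference was 0.17 for Tlr4, -0.01 for Tlr2, -0.014 for Cd14, 0.11 for Myd88, -0.015 for Irak4 and 0.13 for Traf6. The age difference was 0.16 for Tlr4, 0.12 for Tlr2, -0.051 for Cd14, 0.21 for Myd88, -0.0091 for Irak1 and -0.012 for Irak4. Several of these signs rested on 1 rat. Without rat 2532 the age difference was -0.16 for Tlr4 and -0.058 for Tlr2. Without rat 2547 the LPS difference of Tlr4 was -0.14. Signs also turned under the alternatives for Cd14 and Irak4 in both, for Tlr2 and Myd88 with LPS and for Irak1 with age.

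Young LPS and aged vehicle rats were also compared with each other, which sets peripheral inflammation beside age. In DG, 0 of 8 genes passed, beside 0.0134% of all genes, and in CA1 0 of 8 passed, beside 8.73%, that is 3.49% of all genes higher and 5.24% lower in young LPS. For Tlr4 the log2 change in CA1 was -0.29 ± 0.30 (SE, limma adjusted p = 0.497), and it was 0.001 without rat 2532. For Tlr2 it was -0.29 ± 0.20 (limma adjusted p = 0.301). For Irak1 the change in CA1 was 0.13 ± 0.085 (limma adjusted p = 0.266), with 6 of 8 young LPS libraries above the highest aged library. Traf6 in DG stood at 0.36 ± 0.18 (unadjusted p = 0.0564, limma adjusted p = 0.558), with 6 of 8 young LPS libraries above the highest aged library. The other log2 changes in CA1 were -0.12 for Cd14, -0.16 for Myd88, 0.027 for Irak4, -0.22 for Traf6 and -0.14 for Nfkbia. In DG they were -0.30 for Tlr4, -0.16 for Tlr2, -0.16 for Cd14, -0.057 for Myd88, -0.11 for Irak1, 0.03 for Irak4 and -0.11 for Nfkbia. The comparison shares its young LPS libraries with the LPS contrast and its aged libraries with the age contrast.

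In 6 lists, 85 further genes were followed, of which 61 were tested in CA1 and 63 in DG. With LPS, 0 of 61 and 0 of 63 passed; with age, 0 of 61 and 0 of 63. For LPS in CA1, 39 of 61 had a positive change, with a median of 0.072 beside 0.012 over all genes, and in DG 34 of 63, with 0.014 beside -0.0041. Of the 15 negative regulators, 14 had a positive change in CA1 (median 0.19) and 6 in DG (median -0.11), with 0 past the threshold in either. Positive in CA1 and DG were 8 and 5 of 9 NF-kB and IRF factors and 3 and 6 of 11 other Toll-like receptors and chaperones. So were 11 and 14 of 20 adaptors and kinases, and 2 of 5 and 2 of 6 inflammatory targets. Endotoxin binding had 1 of 1 and 1 of 2. Genes of a list share their rats, so these counts of signs are not a test. The gene with the smallest p of each list is named here. For LPS in CA1 these were Il1rl1, the IL-33 receptor, at 0.93 ± 0.36 (SE), Ticam2, the bridging adaptor of the TRIF branch, at -0.55 ± 0.19, Ptgs2, the inducible cyclooxygenase, at -0.43 ± 0.20, Hsp90b1, the chaperone that folds Toll-like receptors, at -0.22 ± 0.084, Rela, the p65 subunit of NF-kB, at 0.32 ± 0.15, and Scarb1, a scavenger receptor, at 0.25 ± 0.18. Their limma adjusted p was 0.654, and 0.662 for Scarb1. For LPS in DG they were Unc93b1, which carries nucleic-acid-sensing receptors to endosomes, at -0.55 ± 0.18 (limma adjusted p = 0.515), Icam1, an adhesion molecule, at -0.46 ± 0.20, Il1rl1 at -0.77 ± 0.48, Irf7, an interferon regulatory factor, at -0.37 ± 0.22, Scarb1 at -0.15 ± 0.086 and Tab2, an adaptor of the kinase TAK1, at -0.11 ± 0.063, the last 5 with limma adjusted p of 0.632 to 0.752. With age in CA1 they were Il1rl1 at 1.12 ± 0.39, Tlr7, a sensor of single-stranded RNA, at 0.82 ± 0.31, Chuk, an IkB kinase, at 0.63 ± 0.27, Irf8, a transcription factor of myeloid cells, at 0.35 ± 0.17, Sod2, the mitochondrial superoxide dismutase, at 0.26 ± 0.093 and Scarb1 at -0.33 ± 0.19. Their limma adjusted p was 0.393, and 0.420 for Scarb1. With age in DG they were Irak3, an inhibitory member of the IRAK family, at 0.90 ± 0.42, Tlr3, a sensor of double-stranded RNA, at 0.64 ± 0.24, Irf5 at 0.24 ± 0.12, Ikbkg, the regulatory subunit of the IkB kinase complex, at 0.22 ± 0.19, Sod2 at 0.19 ± 0.085 and Scarb1 at 0.0078 ± 0.093, each with a limma adjusted p of 1.00. Il1rl1 was read at a low level, at 0.981 to 29.2 normalized reads in CA1 and 0 to 25.1 in DG. Its lowest libraries were those of young vehicle rat 2572 in CA1 (1 recovered read) and young LPS rat 2547 in DG (0 reads).

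The classical inducible products were mostly too low to test: of 20 inflammatory targets, 5 passed the filter in CA1 and 6 in DG. Tnf had at most 10.9 normalized reads in any CA1 library and 4.17 in any DG library, and Il6 at most 4.96 and 3.16. Il1b reached 12.3 in CA1 and 14.4 in DG, with medians of 1.94 and 1.42 over the 22 libraries, and Ccl2 reached 7.29 and 4.97. Lbp, the serum protein that hands LPS to CD14, had medians of 1.52 and 1.11 and a highest value of 37.3, in DG. These transcripts were not tested.

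**Figure D4:**
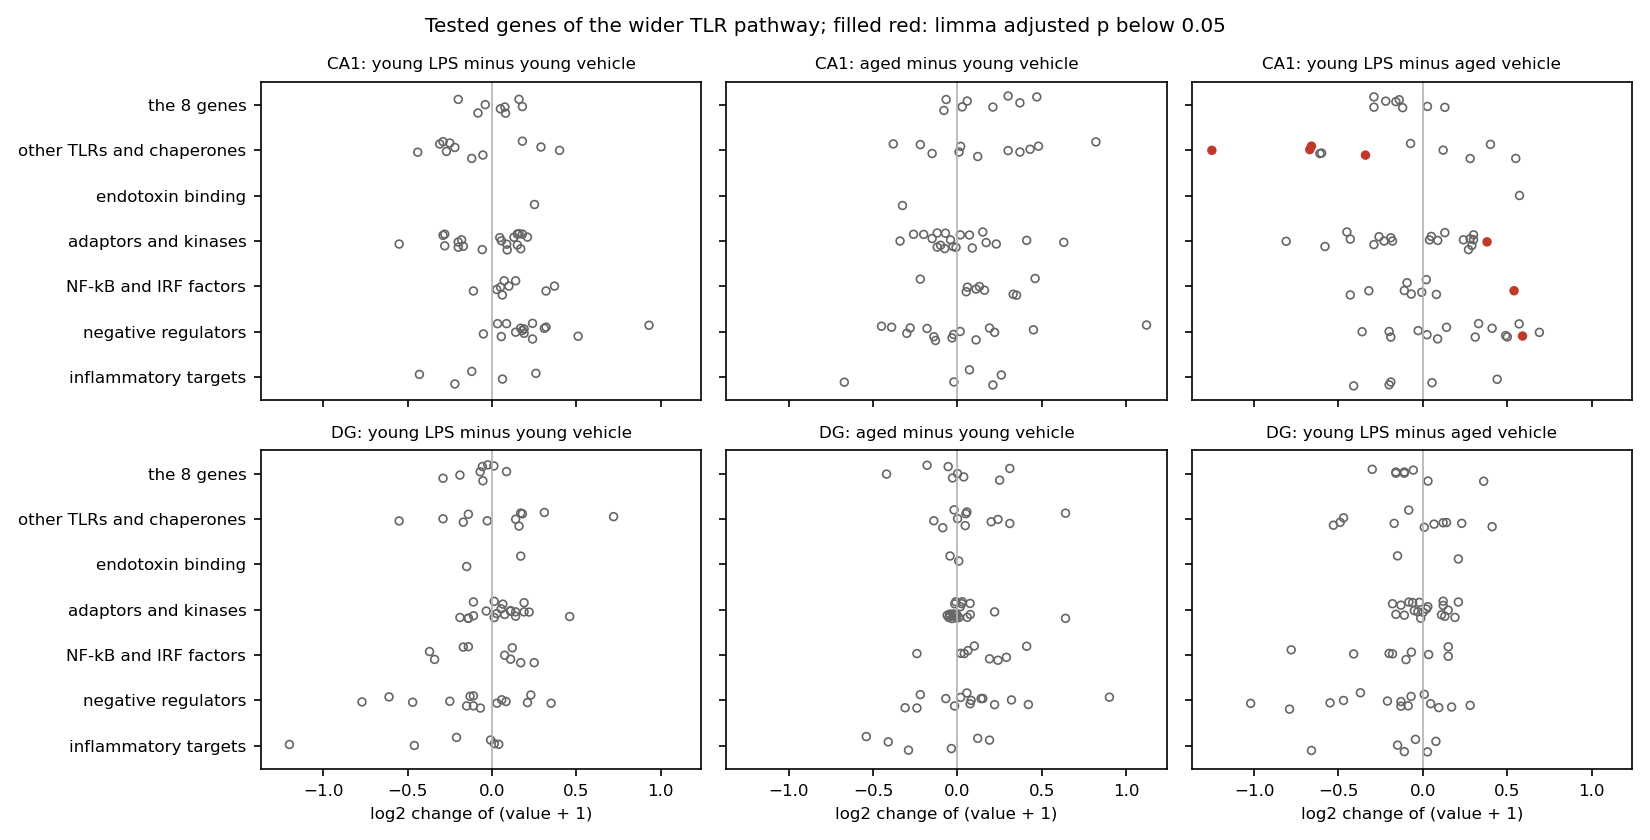
Log2 change of every tested gene of the 8-gene set and of 6 further lists, 1 point per gene, for 3 comparisons in CA1 (top) and DG (bottom); filled red points passed limma's adjusted p of 0.05. Only the CA1 comparison of young LPS with aged vehicle rats holds red points, 7 of the 61 further genes tested there and none of the 8.

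Between young LPS and aged vehicle rats, 7 of the 61 further genes passed in CA1, 3 higher and 4 lower, beside 8.73% of all genes there, and 0 of 63 passed in DG. Tlr7 lay at 49.1 ± 18.1 normalized reads in young LPS rats and 128 ± 89.1 in aged rats (SD, n = 8 and 6), a log2 change of -1.25 ± 0.31 (SE). Hsp90b1 changed by -0.34 ± 0.091 and Tlr13 by -0.66 ± 0.19. Rela changed by 0.54 ± 0.16, Ube2v1, a ubiquitin-conjugating cofactor of TRAF6, by 0.38 ± 0.12 and Tnfaip3, the A20 inhibitor, by 0.59 ± 0.19. The seventh was Tlr3, at -0.67 ± 0.20, named after its values were seen. In the 2 lists with no gene past the threshold in CA1, the smallest p belonged to Scarb1 (0.57 ± 0.19, limma adjusted p = 0.0559) and Sod2 (-0.20 ± 0.093, limma adjusted p = 0.125). In DG the smallest p of each list belonged to Irak3 (-1.02 ± 0.42), Unc93b1 (-0.53 ± 0.19), Irf5 (-0.41 ± 0.12), Chuk (0.21 ± 0.12), Scarb1 (-0.15 ± 0.093) and Sod2 (-0.15 ± 0.085), with limma adjusted p of 0.273 to 0.649. In CA1, all 7 had a limma adjusted p of 0.049, at the edge of the threshold. The count was 0 without any one of 15 of the 22 rats: 2404, 2408, 2410, 2415, 2420, 2526, 2527, 2531, 2532, 2543, 2571, 2717, 2722, 2728 and 2731. It was 11 without rat 2523, 12 without 2403, 14 without 2573 and 19 without 2411. For Tlr7 the aged library of rat 2532 held 303 normalized reads, from 208 recovered reads, and without that rat the change was -0.96 (limma adjusted p = 0.119).

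Each gene was also set against the microglial content of its library, as the mean of 14 microglial markers, both centred on their group means, in 22 libraries per region. Of 16 relations, 3 passed an adjusted permutation p of 0.05. In CA1, Tlr2 had a Pearson r of 0.67 and a Spearman rho of 0.61 (adjusted permutation p = 0.0238 and 0.0266), with 0.75 over the 8 rats numbered 24 and 0.72 over the 10 numbered 25. Without rats 2420 and 2572, which are farthest out in microglial level, r was 0.52 and its adjusted permutation p 0.0782, so the call rests on those rats. Irak4 in CA1 had an r of 0.61 and a rho of 0.64 (adjusted permutation p = 0.0238 and 0.0266), and 0.44 without the same rats (adjusted permutation p = 0.212); its r was 0.29 and 0.77 in the 24 and 25 series. Irak1 in DG ran the other way, with an r of -0.84 and a rho of -0.85 (adjusted permutation p = 0.00272 and 0.00224). Without rats 2526 and 2571 it was -0.80 (adjusted permutation p = 0.00864), and it was -0.72 and -0.86 in the 24 and 25 series. In CA1 the r of Irak1 was -0.40 (adjusted permutation p = 0.214), with 0.39 and -0.58 in the 2 series. Tlr4 had an r of 0.19 in CA1 and 0.39 in DG, and Cd14 of 0.43 and 0.34, none past the adjustment. Gene and markers share each library's scaling. Microglial and endothelial list means in DG were 0.31 and 0.61 in rat 2526 and 0.24 and 0.65 in rat 2572. They were -0.26 and -0.37 in rat 2571, but -0.21 and 0.08 in rat 2543. Whether Irak1 in DG goes with endothelial genes as it does with microglial ones was not tested.

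**Figure D5:**
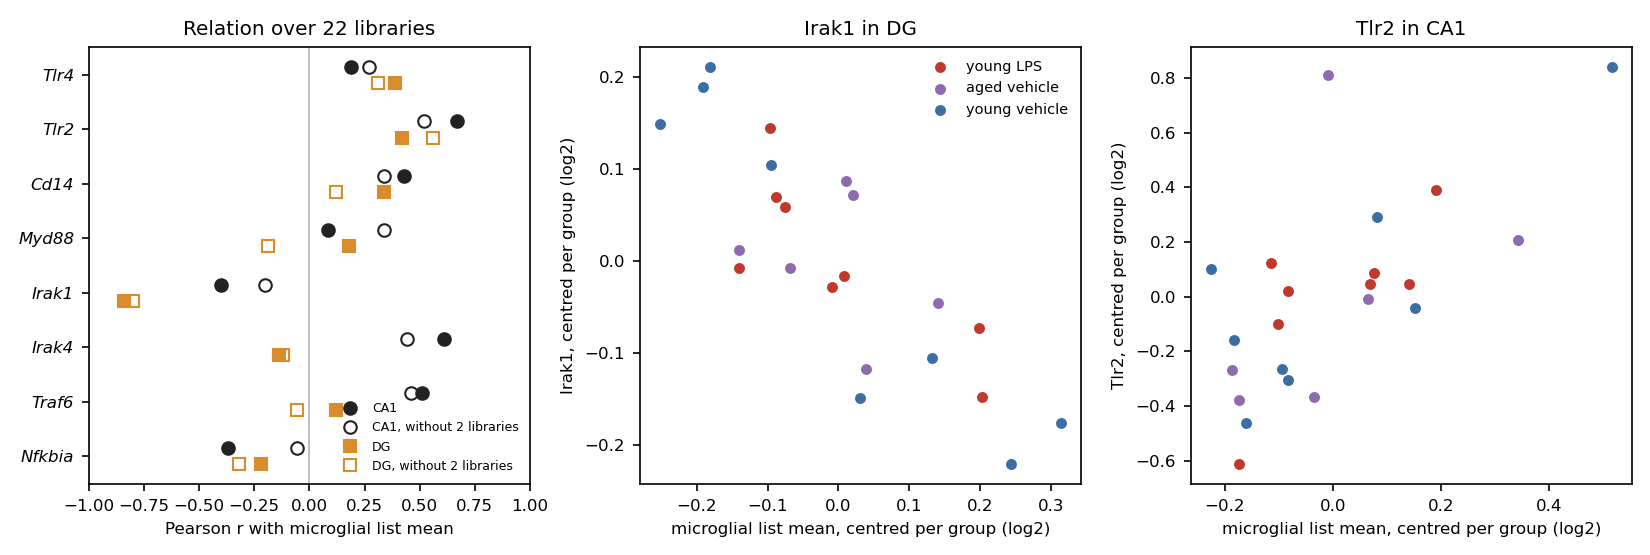
Left, Pearson r of each gene with the microglial list mean over 22 libraries in CA1 (circles) and DG (squares), filled for all libraries and open without the 2 farthest; middle and right, the libraries behind Irak1 in DG (r = -0.84) and Tlr2 in CA1 (r = 0.67), as log2 values centred per group. Irak1 in DG falls along the whole range, while the upper right of Tlr2 in CA1 is a single young vehicle library.

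Summed over the 14 markers, the microglial level was 7178 to 10909 normalized reads in young LPS rats (median 8224), 7396 to 11799 in aged rats (median 8421) and 6635 to 11442 in young vehicle rats (median 7359) in CA1. In DG it was 5782 to 6753 in young LPS rats (median 6112), 6099 to 7624 in aged rats (median 7053) and 5258 to 8215 in young vehicle rats (median 6175). With the list mean as a term in the fit, the CA1 age change of Tlr2 was 0.13 in place of 0.37 and that of Traf6 0.12 in place of 0.30. The LPS change of Nfkbia in DG was -0.31 with that term (limma adjusted p = 0.418).

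The genes whose pattern was most like each receptor's were taken by the mean over both regions of Pearson's r of group-centred values, among 14637 genes and over 22 libraries a region, as a description. Among the genes most like Tlr4 were Nudt12 (mean 0.72) and Aif1l (mean 0.70). Nearest to Tlr2 were Reep3 (mean 0.67), Psat1 (0.66) and Cd81 (0.65), and nearest to Cd14 were Wnt5b (0.70), Dhdds (0.70) and LOC103694863 (0.66). Tlr4 and Tlr2 themselves had an r of 0.59 in CA1 and 0.47 in DG. The highest pair of the set was Tlr2 with Traf6 in CA1, at 0.75, but the same pair had 0.02 in DG. In CA1 the group-centred log2 values of Tlr2 and Traf6 were 0.811 and 0.696 in rat 2532 and 0.840 and 0.720 in rat 2572. The r of this pair without those rats is not given here. Over the 28 pairs of the 8 genes the median r was 0.15 in CA1 and 0.0037 in DG, so they did not move as a block. For 2 further genes, looked up after their values were seen, Nfkbia was nearest to Errfi1 (mean 0.74) and Sgk1 (0.65), a glucocorticoid-induced kinase, and Irak1 to Spns2 (0.82), Strada (0.81) and Med24 (0.80).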

How the data were processed

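For each region the authors deposited a table of normalized read counts (a signal of 0 or more), 20003 rows long for CA1 and 20050 for DG. The submitters' processing notes name STAR, Partek, DESeq2 and the rn6 build, without saying what each did; annotation and strand use were not given in the sources used here. The Ion Total RNA-Seq kit was used, per the labels' protocols. Every library's values are multiples of 1 step, the worth of 1 read. Division by it returned whole reads, within 0.1, for 99.68% to 99.87% of a CA1 library's values and 99.96% to 99.99% of a DG library's. Counting error covers only read sampling. Within groups no 2 libraries agreed within sampling noise (lowest chi-square per gene 4.66 in CA1 and 6.76 in DG).

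A gene was tested where 6 or more libraries of the region reached a value of 10. The test was limma 3.58.1 (R 4.3.3; trend and robust) on log2(value + 1), a scale that understates the change of low genes. A single model per region held the 3 groups; p-values were adjusted by Benjamini-Hochberg over all genes tested, with a threshold of 0.05. Region differences used CA1 minus DG within a rat. The pairing comes from the labels, as both regions are from 1 hippocampus and titles carry the rat's number; a rat's 2 libraries deviated together with a median correlation of 0.051, above 0.1 for 8 of 22 rats. Relations with the microglial list used 100000 permutations within groups. Alternatives were edgeR 4.0.16 (quasi-likelihood) and DESeq2 1.42.0 on recovered reads, pseudocounts of 0.25 and 5, other filters, TMM scaling, omitted rats, and, as added terms, the rats' number series (leading digits 24, 25 or 27), the microglial list or a dissection score (the mean of CA1 pyramidal markers less that of granule cell markers). The fits were checked on simulated data.

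The 8 genes are named in every comparison, and of each further list, in the group comparisons within a region, the genes past the threshold (at most 3 a direction) or else the 1 with the smallest p. Genes and lists were chosen with earlier results of these data known. Promoters are RefSeq's (GRCr8), another build than rn6, and enter no value here. One gene among those most like Tlr4 is not reported here.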

Additional observations from a re-analysis of the deposited data

Results flagged for a closer look

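In 48 groups of 6 or 8 libraries (8 genes, 3 groups, 2 regions), a library stood far from the others of its group in 7 cases by Dixon's test at the 95% level. All 7 were high values. The rate of about 1 in 20 groups at that level holds for normally distributed values and independent groups. Here the genes share their libraries, so the 7 cannot be set against that rate. Of the 7, 4 belong to aged rat 2532. In CA1 its Tlr4 was 81.7 normalized reads, its Traf6 207 and its Nfkbia 379, and in DG its Cd14 was 29.5. In CA1, young vehicle rat 2572 had 172 normalized reads of Tlr2 and young vehicle rat 2731 had 417 of Nfkbia. In DG, young LPS rat 2547 had 55.9 of Cd14. Rats 2532 and 2572 are also 2 of the 3 whose DG libraries were high in meningeal and perivascular genes. In the CA1 library of rat 2532 the list means of these genes were 0.24 and 0.02. Its meningeal genes still summed to 1706 normalized reads, against 2618 in rat 2526 and at most 1080 in any other CA1 library. Its choroid plexus list mean was 0.88, below the 1.07 of rat 2404 and the 1.19 of rat 2420. The parts of those cells and of the scaling in the 7 values were not tested.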

How the results depend on the processing

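In 2124 tests of the 8 genes under the alternatives, 0 passed the threshold. Signs turned in 27 of 412 gene changes under other settings and in 41 of 924 when 1 rat was left out. The cause was not tested. These counts cover all 8 genes for LPS and for age within a region. Between young LPS and aged rats they cover only Tlr4, Irak1 and, in CA1, Tlr2 or, in DG, Traf6. Of the region differences they cover Irak1 and Nfkbia for LPS and Nfkbia and Traf6 for age. Signs also turned outside the counts. Between young LPS and aged rats, Cd14 ran from -0.24 to 0.057 in CA1 and -0.40 to 0.12 in DG. Without rats 2526, 2572 and 2532, the LPS change in CA1 was 0.13 for Cd14, -0.043 for Myd88 and 0.059 for Irak4, and in DG 0.22 for Cd14, 0.0038 for Myd88 and 0.019 for Irak4. The age change without them in CA1 was 0.13 for Cd14, -0.019 for Irak1, 0.059 for Irak4 and -0.15 for Nfkbia, and in DG 0.26 for Cd14 and -0.0055 for Irak1; that of Tlr4 between young LPS and aged rats in CA1 was 0.001. With the dissection score, the LPS change in CA1 was -0.075 for Tlr2 and -0.045 for Traf6 and in DG -0.016 for Tlr4, and the age change in DG was -0.047 for Myd88 and 0.0055 for Irak4. With the number series, LPS gave 0.053 for Nfkbia in CA1 and -0.051 for Tlr4 in DG, and age gave -0.040 for Myd88 and 0.020 for Irak4 in DG. A pseudocount of 0.25 gave -0.015 for Tlr4 in DG with LPS. The age change of Myd88 in DG was -0.016 in edgeR, -0.016 in DESeq2 and -0.034 with the microglial list, which also gave 0.027 for Tlr4 between young LPS and aged rats in DG.

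Leaving out 1 rat, the LPS change in CA1 ran from -0.0092 to 0.11 for Myd88, -0.088 to 0.021 for Irak4, -0.050 to 0.18 for Traf6 and -0.15 to 0.041 for Nfkbia. In DG it ran from -0.12 to 0.37 for Tlr4, -0.43 to 0.030 for Cd14, -0.15 to 0.029 for Myd88, -0.069 to 0.017 for Irak4 and -0.16 to 0.027 for Traf6. The age change in CA1 ran from -0.20 to 0.065 for Cd14, -0.0097 to 0.053 for Irak1 and -0.076 to 0.18 for Nfkbia, and in DG from -0.16 to 0.16 for Cd14 and -0.046 to 0.086 for Myd88. Between young LPS and aged rats, Tlr4 ran from -0.45 to 0.001 in CA1 and -0.44 to 0.053 in DG.

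The 7 further genes called between young LPS and aged rats in CA1 were 0 with the dissection score, 0 with no filter, 0 without rats 2526, 2572 and 2532, 11 at a mean of at least 50, 12 in edgeR, 16 with the microglial list, 17 in DESeq2 and 17 with the number series, and 0 to 19 with 1 rat left out. Of all genes, 1302 were called there, against 3 with the dissection score, 3 with no filter, 5 without the 3 rats, 2155 in edgeR, 3299 in DESeq2, 3715 with the microglial list and 2910 with the number series. The 3 relations with the microglial level were 1 when the 2 farthest libraries were left out. Without the pairing of regions by rat (no replicate block), 0 of 8 genes passed for LPS and 0 of 8 for age; Irak1 stayed at 0.23 (limma adjusted p = 0.361) and Traf6 at 0.72 (limma adjusted p = 0.757). Depth limits Tlr4 and Cd14 most, with medians of 18.5 to 23.5 reads per library.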
